A study of Mus musculus with 4 samples.

Results

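The transcripts described here are those of 10 mouse genes around the transcription factor nuclear factor kappa B (NF-κB): the NF-κB/Rel subunit genes Nfkb1, Nfkb2 and Relb, the nuclear IκB-like co-regulators Bcl3 and Nfkbiz, the feedback inhibitors Nfkbia and Tnfaip3, the ubiquitin ligase gene Birc3, and the adhesion genes Icam1 and Vcam1. The genes were set by name, with earlier results of these data known, and their probes are those that carry one of these gene names in the array annotation. All 10 genes were measured, among 20526 named genes above background on at least 1 array. The study compared cultured primary hepatocytes of C57BL/6 mice lacking dynamin-related protein 1 (Drp1, encoded by Dnm1l), a protein of mitochondrial fission, in the liver with those of control animals, and the deleted mice are called Drp1LiKO.

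There were 4 groups with 1 array each: untreated control, untreated Drp1LiKO, and each genotype given the saturated fatty acid palmitate at 200 μM. Control animals were floxed littermates without deletion (Drp1flox/flox), which the labels also call wild-type, so every group carries the floxed Dnm1l allele. In Drp1LiKO mice a Cre transgene under the albumin promoter (Alb-Cre) deletes it, which acts in hepatocytes and leaves the gene intact in cells that do not use this promoter. The methods name male animals, and the age of the animals behind these cultures and their number per array are not given in the sources used here. Cells were harvested 24 h after seeding, following a low-speed spin and the removal of floating cells. The untreated groups received no fatty acid. By its label, the untreated control array shares its raw data with a sample that is not among these 4. Since no group has a replicate, no difference between a pair of arrays could be tested against a spread between animals or cultures.

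NF-κB is a dimer of Rel-family proteins that inhibitors of the IκB family hold in the cytoplasm. Signals from cytokine and Toll-like receptors activate a kinase that marks IκB for destruction, and the dimer then enters the nucleus and binds short DNA elements. Many of its target genes encode its own brakes, such as IκBα (Nfkbia) and A20 (Tnfaip3), so their transcripts are often read as a trace of pathway activity. In the liver the pathway is active in hepatocytes as well as in macrophages and endothelial cells, where it drives cytokines and adhesion molecules. The arrays measure transcripts only and say nothing on the protein, its modification or its place in the cell.

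The start regions of the members were read for the element first, as the context in which their transcripts are described. RefSeq promoter windows (GRCm38.p6), which run from 250 bases before to 50 bases after a transcript start, were matched by symbol for 6 of the 10 members, with 9 windows in all. Nfkb1, Relb, Nfkbiz and Vcam1 had no window. Both strands were searched for GGG, any 2 bases, TT, any base and CC, and for GGAAATTCC, 2 forms of the κB element that were settled on after several forms had been tried, and the forms can overlap. Of all 32851 windows, 4.79% held the first form, 0.317% the second and 5.02% either. At least 1 match was found for 5 of the 6 members, and neither form stood in the Birc3 window. This counts genes, some with several windows, whereas the shares above count windows, and the forms were chosen after trials. The count therefore measures no excess over all windows. The 4 stretches below are shown because they let the element be seen beside the start of a subunit gene, both feedback inhibitors and an adhesion gene. Each runs 5′ to 3′ on the strand of the gene, and capitals mark the matches.

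Nfkb2 (chr19:46304677-46304736, plus strand, −60 to −1 from the start): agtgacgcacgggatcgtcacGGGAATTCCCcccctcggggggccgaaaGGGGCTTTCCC
Nfkbia (chr12:55492648-55492707, minus strand, −60 to −1): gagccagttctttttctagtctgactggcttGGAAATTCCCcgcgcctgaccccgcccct
Tnfaip3 (chr10:19015411-19015470, minus strand, −60 to −1): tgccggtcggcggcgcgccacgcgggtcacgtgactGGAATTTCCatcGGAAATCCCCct
Icam1 (chr9:21015761-21015820, plus strand, −179 to −120): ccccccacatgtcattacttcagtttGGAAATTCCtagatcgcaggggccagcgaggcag

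In Nfkb2 the first match reads the same on both strands and the second holds 2 overlapping matches. In Nfkbia the first form, on the opposite strand, and the second form overlap. The Tnfaip3 stretch holds 1 match of each form, and Icam1 holds 1 of the second form, at −153 to −145. A second Tnfaip3 window held 0 matches, and each further Nfkb2 window held 1. In the Bcl3 window the match GGGAAGTCCC lies just after the start, at 3 to 12, on the opposite strand. A match describes the sequence only, and no binding was measured here.

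Levels are given as log2 intensity relative to the 75th percentile of the same array, which is set to 0, so they compare a probe with itself across arrays and not with another probe. The 10 genes have 23 probes, of which 18 were well above background by the scanner flag on all 4 arrays, 2 on some arrays and 3 on none. Each member is represented by its brightest probe, and this probe was above background on all 4 arrays for all 10. The error bars used here come from the error estimate of the scanner software, which gave 0.204 to 0.215 log2 units for a difference between 2 arrays. They hold the noise of a spot and not that of animals or cultures. A member counts as called when it differed at least 2-fold. The targeted gene Dnm1l read 2.42, 1.07, 2.43 and 1.01 in control, Drp1LiKO, control with palmitate and Drp1LiKO with palmitate, so that both Drp1LiKO arrays were lower, as labelled. The arrays had 44.7% to 51.1% of probes above background and no saturated spot.

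**Figure D1:**
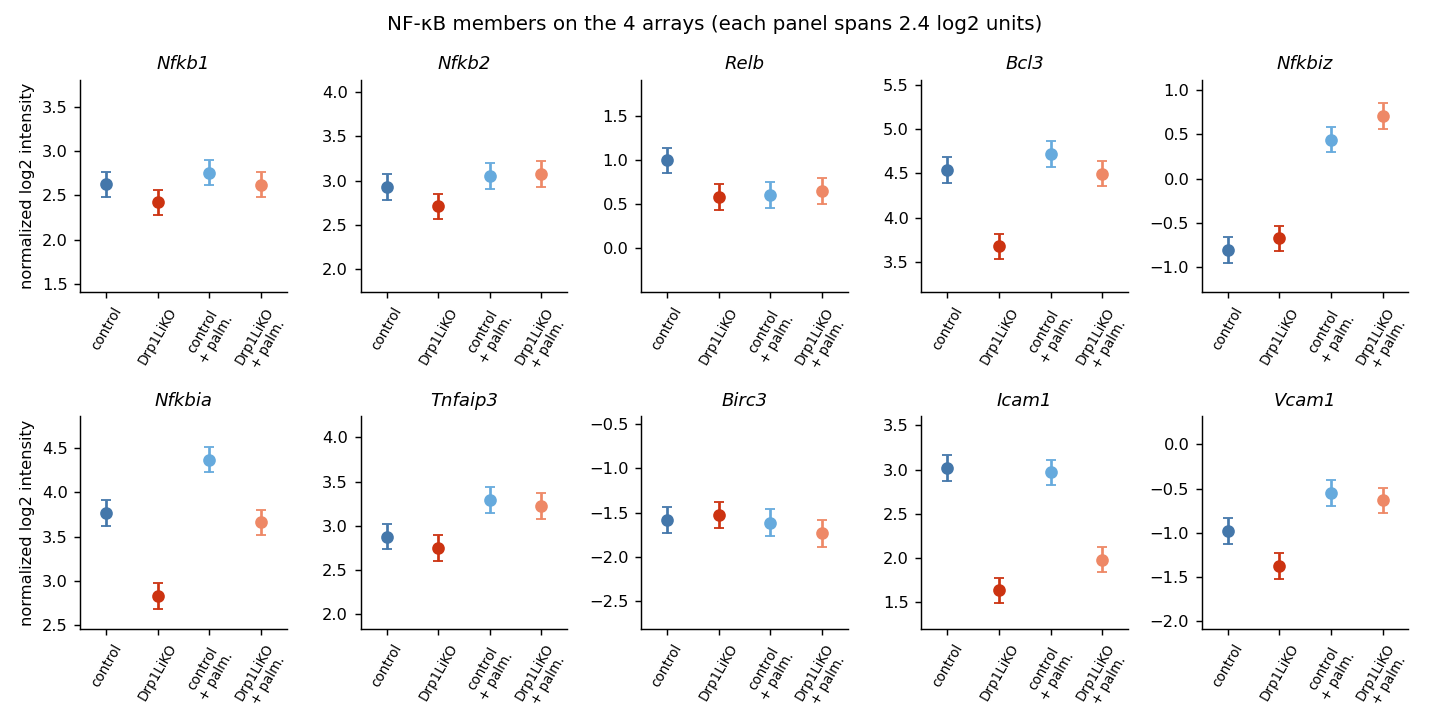
Normalized log2 intensity (0 is the 75th percentile of the array) of the representing probe of each of the 10 members on the 4 arrays; each point is 1 array, bars are the scanner error, and each panel spans 2.4 log2 units around its own mean. Icam1 and Nfkbia were lower on the Drp1LiKO array of each treatment, Nfkbiz was higher on both palmitate arrays, and Birc3 stayed between −1.73 and −1.52.

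Without palmitate, the members lay on the low side in Drp1LiKO hepatocytes: 8 of 10 were lower than in control, with a median log2 difference of −0.31. Over all 19803 genes compared, 52.1% were lower and the median was −0.020. Of the members, 1 was called lower and 0 higher, against a background of 5.56% of all genes lower and 8.82% higher. The called member was Icam1, followed by Nfkbia (−0.94) and Bcl3 (−0.86). With palmitate on both sides, 7 of 10 members were lower in Drp1LiKO, with a median of −0.10 against −0.029 over 18820 genes. None was called, a count of 0 against backgrounds of 4.21% lower and 7.24% higher, although Icam1 lay just short of 2-fold at −0.99. Scaling by the array median in place of the 75th percentile moved the median of all genes to −0.203 and −0.174, and then Nfkbiz (−0.05) and Birc3 (−0.12) were lower as well in untreated cells, as were Nfkb2 (−0.12) and Relb (−0.10) with palmitate.

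Palmitate went with higher values of most members. In control cells 7 of 10 were higher, with a median response of 0.16 beside 0.007 over 18703 genes. In Drp1LiKO cells 9 of 10 were higher, with a median of 0.42 beside 0.004 over 19677 genes. Nfkbiz was the 1 member called higher in each genotype, against backgrounds of 2.79% of genes higher in control and 3.91% in Drp1LiKO. Called lower were 0 members in each, against 2.83% and 3.09% of genes.

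At a lower limit of 1.5-fold, Icam1, Nfkbia and Bcl3 were called lower in untreated Drp1LiKO, 3 members against 11.4% of genes, and with palmitate Icam1 and Nfkbia, 2 members against 8.33%. With palmitate Nfkbiz and Nfkbia passed it in control, 2 members against 5.73% of genes. In Drp1LiKO Bcl3 and Vcam1 passed it too, 4 members against 7.93%. Treated and untreated cells were hybridised on separate slides, each with both genotypes, so for palmitate treatment and slide cannot be told apart. The genotype differences and the palmitate responses share arrays, and are therefore given side by side and not as separate evidence.

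The adhesion gene Icam1 encodes a surface protein that binds leukocyte integrins, and its transcript rises in many cell types after NF-κB activation. Its probe (mm9 chromosome 9, 20833186 to 20833245) read 3.02 in control, 1.64 in Drp1LiKO, 2.97 in control with palmitate and 1.98 in Drp1LiKO with palmitate. Both Drp1LiKO arrays lay below both control arrays. The genotype difference was −1.38 untreated, a 2.60-fold lower value, and −0.99 with palmitate, a 1.98-fold lower value. At or below these values were 3.54% of genes in the untreated comparison and 4.32% in the palmitate comparison. A second Icam1 probe, 896 bases away (20832290 to 20832349), read −1.24, −2.36, −1.18 and −2.39 in the same order. Its genotype differences were −1.13 and −1.21, so both probes of the gene showed the lower value in each treatment. The palmitate response of Icam1 was small beside this, at −0.05 in control and 0.35 in Drp1LiKO on the first probe and 0.06 and −0.02 on the second.

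Vcam1, the adhesion molecule that binds the integrin VLA-4, did not share this pattern and its probes disagreed. The representing probe (chromosome 3, 115813216 to 115813275) read −0.98 in control, −1.38 in Drp1LiKO, −0.55 in control with palmitate and −0.63 in Drp1LiKO with palmitate. The genotype difference was −0.40 untreated and −0.08 with palmitate. A second probe, 15737 bases away (115828953 to 115829012), was well above background on both Drp1LiKO arrays and on neither control array. Against the lowest level that counts as above background on the control array, it was at least 1.31-fold higher in Drp1LiKO untreated and at least 1.73-fold higher with palmitate. The direction of the genotype difference of Vcam1 thus depended on the probe. With palmitate the representing probe was higher by 0.42 in control and by 0.74 in Drp1LiKO.

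**Figure D2:**
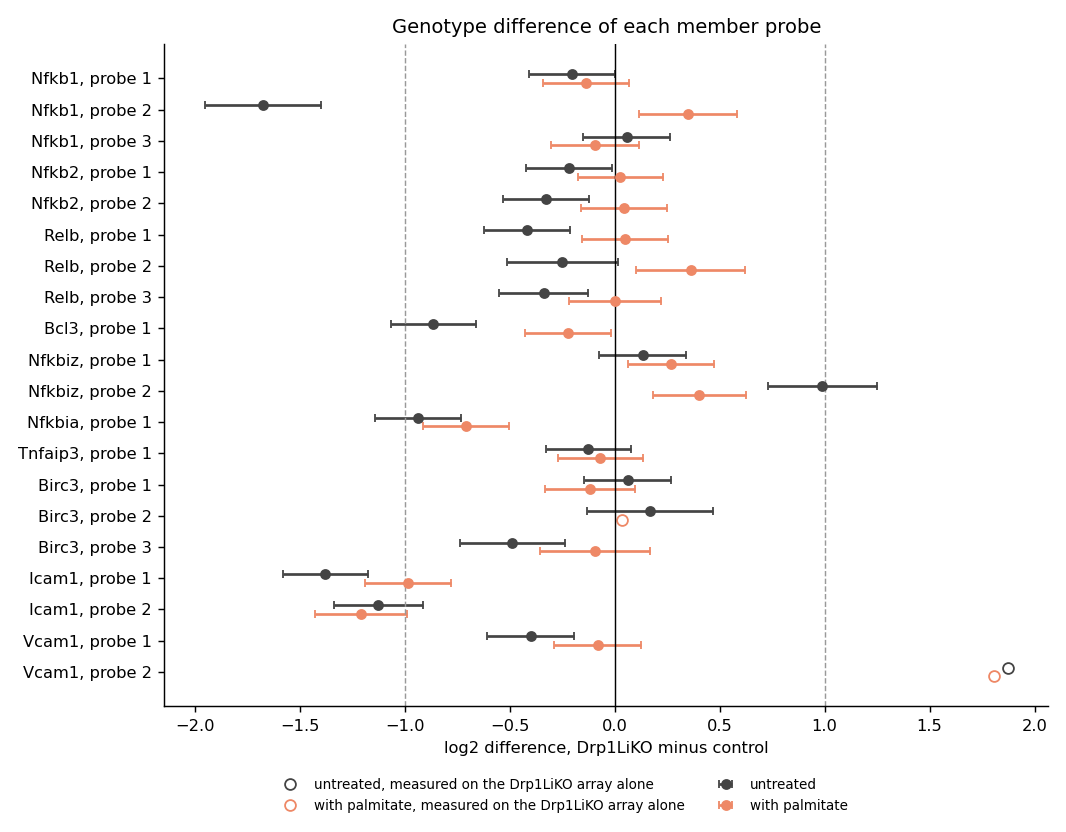
Log2 difference between Drp1LiKO and control, untreated (dark) and with palmitate (orange), for the 20 member probes above background on all 4 arrays or on both Drp1LiKO arrays; probe 1 is the representing probe, bars are the scanner error and dashed lines mark 2-fold. Both Icam1 probes lie near −1 in each treatment, Nfkb1 probe 2 departs from the other Nfkb1 probes in untreated cells, and the open circles, at both values of Vcam1 probe 2 and 1 value of a Birc3 probe, rest on control arrays below background and are not folds.

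The feedback inhibitors differed from each other. Nfkbia encodes IκBα, the inhibitor that captures NF-κB dimers and that NF-κB itself induces. Its single probe (chromosome 12, 56590945 to 56591440, a span of 496 bases in the genome) read 3.77 in control, 2.83 in Drp1LiKO, 4.37 in control with palmitate and 3.66 in Drp1LiKO with palmitate. Its genotype difference was −0.94 untreated and −0.71 with palmitate, and 6.14% and 6.55% of genes were at or below these values. Its palmitate responses were 0.60 in control and 0.83 in Drp1LiKO, which left the Drp1LiKO value with palmitate slightly under the untreated control value. Of all genes, 5.49% and 4.93% had a response at or above these. Tnfaip3, which encodes the ubiquitin-editing enzyme A20, had 1 probe as well (chromosome 10, 18720776 to 18720835). It read 2.88, 2.75, 3.29 and 3.22 in the same order of arrays. Its genotype differences of −0.13 and −0.07 were within the scanner error, and its palmitate responses were 0.41 in control and 0.47 in Drp1LiKO. Both inhibitors thus read higher on the palmitate arrays, while the genotype difference exceeded the scanner error for Nfkbia and not for Tnfaip3.

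Among the nuclear co-regulators, Nfkbiz had the largest palmitate response of the 10 members in each genotype. It encodes IκBζ, an inducible partner of p50 that is needed for a group of secondary response genes such as Il6 and Lcn2. Its probe (chromosome 16, 55812091 to 55812150) read −0.81 in control, −0.68 in Drp1LiKO, 0.44 in control with palmitate and 0.71 in Drp1LiKO with palmitate. Both palmitate arrays lay above both untreated arrays, with responses of 1.25 in control (2.38-fold) and 1.38 in Drp1LiKO (2.61-fold). These stood at or above all but 2.24% and 2.55% of genes. A second Nfkbiz probe, 5768 bases away and dimmer, read −3.59, −2.60, −1.99 and −1.59, with responses of 1.60 and 1.01. The remaining probe was not well above background on any array. The genotype differences of the first probe were 0.13 untreated and 0.27 with palmitate, and those of the second probe were 0.99 and 0.40.

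Bcl3, an IκB-like protein that binds p50 and p52 homodimers in the nucleus, behaved differently. Its probe (chromosome 7, 20393826 to 20393885) read 4.54 in control, 3.68 in Drp1LiKO, 4.72 in control with palmitate and 4.50 in Drp1LiKO with palmitate. The untreated Drp1LiKO array stood below the rest, among which the genotypes differed by 0.22 with palmitate. The genotype difference was −0.86 untreated and −0.22 with palmitate, and the palmitate response was 0.18 in control and 0.82 in Drp1LiKO. The second Bcl3 probe was not well above background on any array, so the pattern rests on 1 probe.

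The subunit genes differed little between arrays on their brightest probes, by at most 0.42. Nfkb1, whose product p105 is cut to p50, read 2.63, 2.42, 2.76 and 2.62 in control, Drp1LiKO, control with palmitate and Drp1LiKO with palmitate on its brightest probe (chromosome 3, 135247898 to 135247958), with genotype differences of −0.20 and −0.14. Another probe gave 0.06 and −0.09. The last, dim Nfkb1 probe (135275144 to 135275203), 27246 bases from the first, read −2.50, −4.17, −2.53 and −2.18, and the untreated Drp1LiKO array alone departed from the rest. Nfkb2, whose product p100 is cut to p52, read 2.93, 2.71, 3.05 and 3.08 (chromosome 19, 46386440 to 46386499), and its second probe read 1.54, 1.21, 1.30 and 1.35. Untreated, the genotype difference of Nfkb2 was −0.22 and −0.33 on these probes, and with palmitate it was 0.03 and 0.04.

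Relb, the partner of p52 in the non-canonical branch, was highest on the untreated control array. Its probe (chromosome 7, 20191722 to 20191781) read 1.00 there, against 0.58, 0.60 and 0.65 in Drp1LiKO, control with palmitate and Drp1LiKO with palmitate. Its difference was −0.42 for genotype in untreated cells and −0.40 for palmitate in control cells, whereas 0.05 separated the genotypes with palmitate. A second probe 217 bases away gave −0.34 and −0.26 for the same contrasts. The last, dim probe, 11336 bases away, gave −0.25 and 0.28, so the direction of the palmitate response in control depended on the probe.

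Birc3 encodes cIAP2, a ubiquitin ligase of the tumour necrosis factor receptor complex. Its probe (chromosome 9, 7854409 to 7854468) read −1.58, −1.52, −1.61 and −1.73, and its 4 differences, from −0.21 to 0.06, were no larger than about the scanner error. Of 3 further probes, 1 was above background on all arrays, at −3.03, −3.52, −2.92 and −3.01, 1 on 3 arrays and 1 on none. It was the member with the smallest response to palmitate in control cells, at −0.03.

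**Figure D3:**
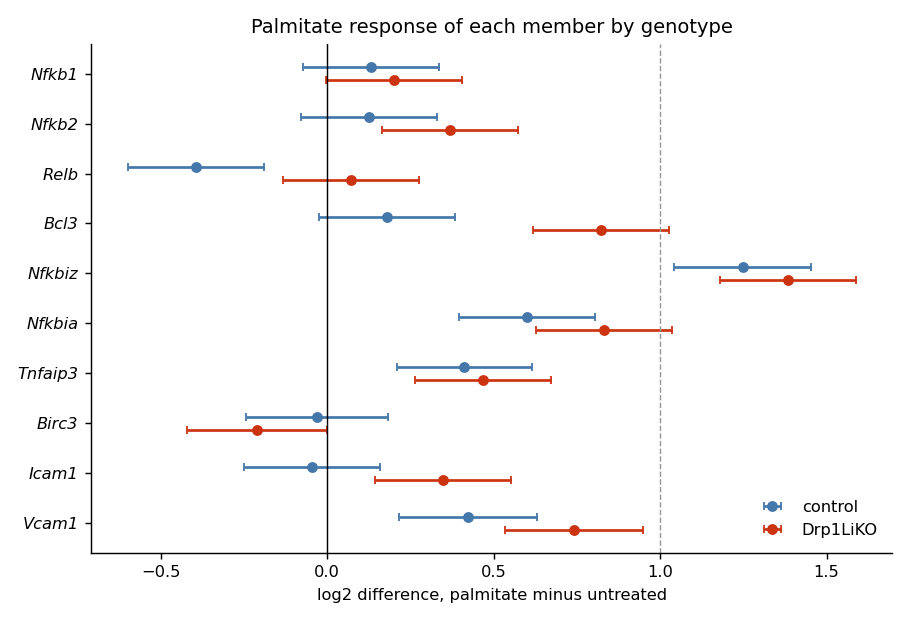
Log2 difference between palmitate and untreated arrays for the representing probe of each member, in control (blue) and Drp1LiKO (red) hepatocytes; bars are the scanner error and the dashed line marks 2-fold. Nfkbiz lies beyond the line in both genotypes (1.25 and 1.38), and the Drp1LiKO point is to the right of the control point for 9 of the 10 members.

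Set side by side on the representing probes, the palmitate response was larger in Drp1LiKO than in control for 9 of 10 members, with Birc3 as the exception (−0.18). The median difference between the responses was 0.24, beside −0.003 over 20526 genes, of which 49.6% were above 0. The members ordered as Bcl3 (0.64), Relb (0.47), Icam1 (0.39), Vcam1 (0.32), Nfkb2 (0.24), Nfkbia (0.23), Nfkbiz (0.14), Nfkb1 (0.07) and Tnfaip3 (0.06). The scanner error of this difference was between 0.289 and 0.300, which Bcl3, Relb, Icam1 and Vcam1 exceeded, and 0 members reached 2-fold, against 1.79% of the 16563 genes above background on all arrays, as the members were, and 2196 of all 20526. This quantity also equals the genotype difference with palmitate minus that without. For Bcl3 and Icam1 it went with a low untreated Drp1LiKO value. For Relb it went with a high untreated control value, 1.00 against 0.58, 0.60 and 0.65 on the other arrays. Neither Bcl3, Icam1 nor Relb was higher with palmitate in Drp1LiKO than in untreated control. Vcam1 was, at −0.63 against −0.98. This difference between the responses was read on the representing probes. It has no test, since it takes all 4 arrays. On the other probes above background on all 4 arrays its sign varied. It was −0.08 for Icam1, −0.59 for Nfkbiz, −0.15 and 2.03 for Nfkb1, and 0.37 for Nfkb2. For Relb it was 0.61 and 0.34, and for Birc3 0.39.

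**Figure D4:**
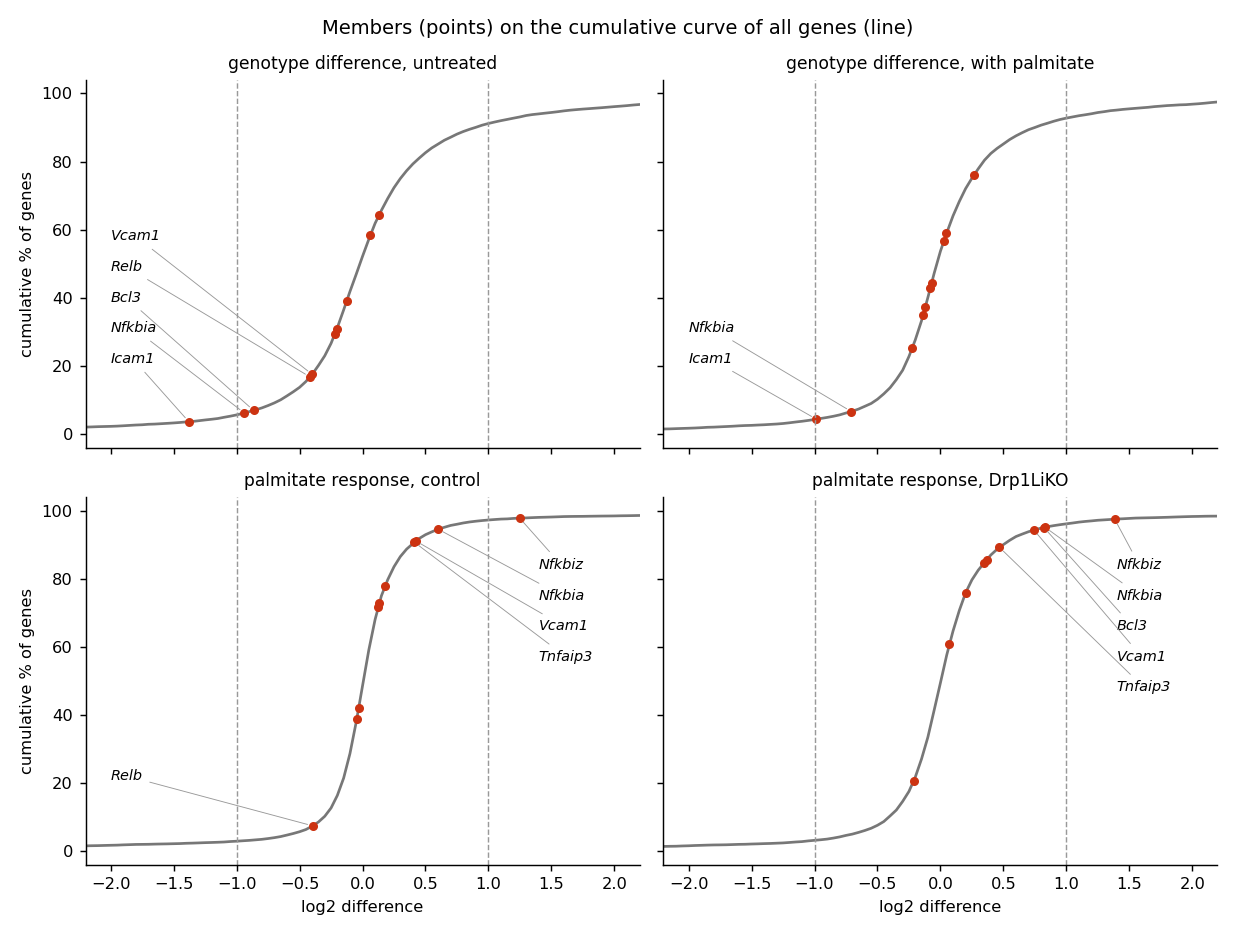
Cumulative percent of all genes (line) against the log2 difference in each of the 4 comparisons, with the 10 members as points on the line; dashed lines mark 2-fold and members at least 0.39 from 0 are named. Icam1 and Nfkbia lie low on the curve in both genotype comparisons, and Nfkbiz lies at its top end in both palmitate comparisons.

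An additive limma model over the 4 arrays, with genotype and palmitate as terms and 1 residual degree of freedom, was the test used. With 1 array per group, this degree of freedom is the difference between the palmitate responses given above. A differing response and a spread between animals or cultures cannot be told apart in it. The SE and p values of the additive model rest on this difference, in the gene and across genes, and not on replicates. The model took this difference as noise and did not test it. It called 0 of 20526 genes for genotype at an adjusted p under 0.05 (0%), while 26.1% of genes had an unadjusted p under 0.05, and the lowest adjusted p was 0.118. For palmitate it also called 0 (0%), while 9.72% had an unadjusted p under 0.05, and the lowest adjusted p was 0.510. Among the members, the smallest adjusted p for genotype was 0.131, for Icam1 (−1.18, SE 0.15) and for Nfkbia (−0.82, SE 0.10), both lower in each treatment. For palmitate it was 0.510, shared by Nfkbiz (1.32, SE 0.08), Nfkbia (0.72, SE 0.10) and Tnfaip3 (0.44, SE 0.07). With an intensity trend in limma's variance the adjusted p was 0.0012 for Icam1, 0.0015 for Nfkbia and 0.041 for Bcl3 by genotype, and 0.012 for Nfkbiz and 0.032 for Nfkbia by palmitate. By genotype Icam1 and Nfkbia also passed after normexp background correction (adjusted p 0.0405 for both) and among genes above background on all arrays (0.0269 and 0.0283). Over all alternatives, a limma fit without the palmitate term included, the adjusted p for genotype reached up to 0.176 for Icam1, 0.332 for Nfkbia and 0.411 for Bcl3, and for palmitate up to 0.549 for Nfkbiz and Nfkbia. Whether these members passed therefore depended on the background correction, the filter and the variance model.

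The rest of the pathway was read from a list of 45 other genes (receptors, adaptors, kinases, subunits and inhibitors), of which 44 were measured. Their medians were 0.01 and 0.00 for genotype and −0.02 and 0.01 for palmitate, close to those of all genes. Rela, which encodes p65, read 5.53, 5.40, 5.52 and 5.47, a range of at most 0.13. In untreated cells 0 of 44 were called between genotypes, against 8.82% of all genes higher and 5.56% lower in Drp1LiKO. With palmitate 1 was called higher in Drp1LiKO, the adaptor Traf1, and 1 lower, the interleukin-1 receptor Il1r1 (−1.16). The shares of all genes were 7.24% higher and 4.21% lower. With palmitate against untreated, the RNase gene Zc3h12a was called in control (1.08) and in Drp1LiKO (1.07). Traf1 was called in Drp1LiKO as well (2.71) and read −2.38, −3.30, −1.69 and −0.59 on the 4 arrays. Of all genes, 2.79% in control and 3.91% in Drp1LiKO were called higher with palmitate. Nfkbib, which encodes IκBβ, had genotype differences of 0.67 and 0.52, opposite to Nfkbia.

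Other target genes spread much more widely than the members. Of 26 listed, 25 were measured, with genotype medians of −0.27 untreated and 0.11 with palmitate and palmitate medians of 0.45 in control and 0.68 in Drp1LiKO. In untreated Drp1LiKO cells 7 were called higher and 5 lower, and with palmitate 7 higher and 4 lower. Of all genes, 8.82% were called higher and 5.56% lower untreated, and 7.24% and 4.21% with palmitate. Called lower in both treatments were the chemokine genes Ccl20 (−3.71 and −3.57) and Ccl2 (−1.56 and −1.04) and the growth factor gene Csf1 (−1.85 and −1.68), the same direction as Icam1. Called higher in both were, among those with the largest differences, Ccl5 (3.48 and 3.14), Cxcl10 (3.52 and 1.81), Bcl2a1d (2.54 and 2.51, from a family of near-identical copies), Il1b and Il6. Untreated, Il1b was at least 2.50-fold and Il6 at least 2.33-fold higher. With palmitate their log2 differences were 1.96 and 3.29. Lcn2, a target of IκBζ, was higher by 1.67 and 2.02. For palmitate 9 were called higher in control and 8 in Drp1LiKO, with none lower. Of all genes, 2.79% and 3.91% were called higher, and 2.83% and 3.09% lower. Ccl2 (1.28 and 1.79), Ccl20 (1.16 and 1.30) and Cxcl1 (1.08 and 1.60) were among the target genes called in both genotypes. In control cells the Il1b signal was at least 7.09-fold and that of Il6 at least 2.58-fold above an untreated array below background. In Drp1LiKO the log2 differences were 3.47 and 3.44.

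Of 13 other adhesion genes, 10 were measured. Their genotype medians of 0.47 untreated and 0.38 with palmitate lay above 0, whereas the 2 adhesion members lay below it on their representing probes. Icam2 was higher in Drp1LiKO by 2.09 and 1.34 log2 units. The leukocyte integrin gene Itgb2 was higher by 1.54 log2 units untreated and at least 3.35-fold with palmitate. Alcam had genotype differences of −1.22 and −1.19. Palmitate gave this list medians of 0.30 (control) and 0.17 (Drp1LiKO), with 0 and 2 genes called higher, against 2.79% and 3.91% of all genes.

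**Figure D5:**
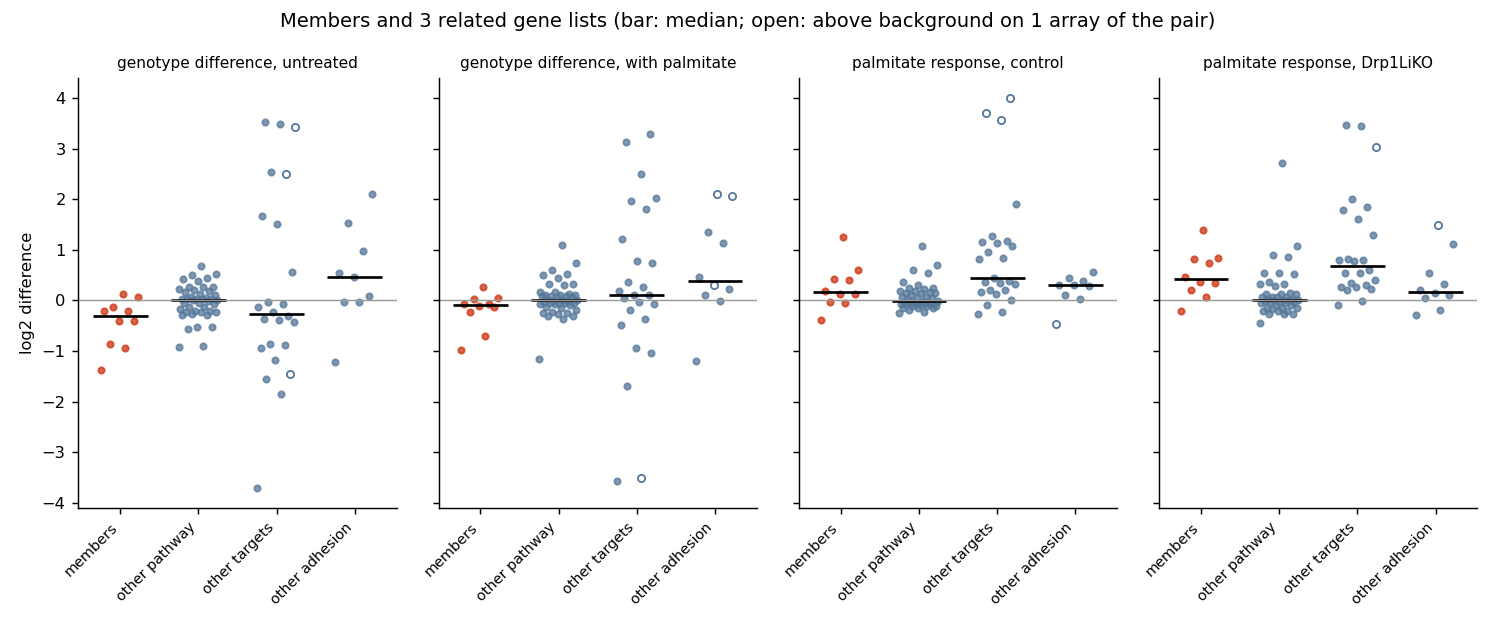
Log2 differences in the 4 comparisons for the 10 members (red) and the measured genes of 3 related lists (blue), 1 point a gene with the list median as a bar; open circles were above background on 1 of the compared arrays and are not folds. The medians of the other pathway genes lie near 0, the other targets spread from −3.71 to 4.00, and the members from −1.38 to 1.38.

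Transcripts of other liver cells differed between the genotypes in the same arrays. Macrophage markers were higher in untreated Drp1LiKO for 17 of the 17 compared, and with palmitate for 15 of 16, with median differences of 2.34 and 1.87. Their summed level, in units of the 75th percentile, was 25.46 in control, 57.84 in Drp1LiKO, 30.31 in control with palmitate and 55.81 in Drp1LiKO with palmitate. Timd4 and Cd163 stayed near background on all arrays, and Clec4f was above it on 2. Endothelial markers were higher in Drp1LiKO for 12 of 12 and 10 of 11, with sums of 10.04, 15.89, 9.12 and 13.68, and stellate cell markers for 10 of 10 and 9 of 9, with sums of 45.25, 62.69, 46.50 and 59.36. The median differences were 2.02 and 1.24 for endothelial and 3.06 and 2.64 for stellate markers. Medians of the marker lists include markers below background on 1 of the compared arrays, whose differences are not folds. The endothelial median with palmitate falls on Tie1, at least 1.09-fold higher. The stellate medians fall on Rgs5 and Lum untreated, at least 1.62-fold and 2.97-fold higher, and on Rgs5 with palmitate, at least 1.23-fold. The stellate sums are mostly Acta2, which differed by 0.22 and 0.02. The endothelial sums are mostly Egfl7, which differed by 0.29 and 0.42. Des stayed near background on all arrays. Neutrophil sums were 35.50, 37.04, 40.71 and 42.82, lymphocyte sums 2.78, 2.63, 3.35 and 3.14, cholangiocyte sums 60.53, 41.76, 57.10 and 43.63, and mesothelial sums 8.49, 6.82, 4.94 and 3.86. In this order, these sums are mostly Csf3r, Cd4, Spp1 and Krt19. Their median genotype differences, over at most 4 genes each, were 0.06 and 0.85 for neutrophil and −0.09 and 1.24 for lymphocyte markers. For cholangiocyte markers they were 0.04 and −0.40, and for mesothelial markers 0.025 and 0.65. Hepatocyte marker sums were 2584.80, 2407.55, 2549.46 and 2458.12, most of them from Serpina1a, Ambp, Alb, Trf and Apoa2, while Cps1 and Tat lay below the 75th percentile on all arrays and Pck1 was above background on 1. Macrophages and endothelial cells also transcribe the members. Icam1, Nfkbia and Bcl3 ran opposite to the macrophage, endothelial and stellate sums, while the second probes of Nfkbiz and Vcam1 ran the same way between the genotypes. The lymphocyte, cholangiocyte, mesothelial and hepatocyte sums were lower in Drp1LiKO in each treatment, as Icam1, Nfkbia and Bcl3 were. Gene by gene, however, the hepatocyte markers had median genotype differences of 0.14 untreated and 0.16 with palmitate. Of these markers, 10 of 16 and 9 of 17 were higher in Drp1LiKO. The neutrophil sums were higher. The part of these cells in any member's value was not tested. In such bulk samples fewer cells of a type and less RNA per cell cannot be told apart.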

How the data were processed

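RNA of 4 hepatocyte cultures was labelled with Cy3 and hybridised to a mouse whole-genome 60-mer array. The labels and the methods name different RNA extraction kits. The deposited scanner tables hold background-subtracted intensity values on a linear scale, written by Feature Extraction 10.7.1.1 (the labels name 9.5.1.1) with no scaling between arrays and probe positions on mm9. The authors also deposited a table of quantile-normalized intensity values, which served as an alternative. Other scanner columns used, as deposited, are flags and an error estimate in intensity units.

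Log2 processed signals were centred per array on its 75th percentile. Control spots and outlier spots were left out, and repeat spots were averaged. The brightest probe on average, of those above background on any array, stands for a gene. Differences between arrays have no test. The additive model used lmFit and eBayes of limma 3.58.1 (R 4.3.3), with two-sided p adjusted after Benjamini and Hochberg over all genes. It was also run on simulated data with known changes to check its estimates, and its calls there are not reported here. The only precision available is that of single spots, and the number of arrays limits it. The members and the gene lists were chosen with earlier results of these data known. From the lists, genes called in the same direction in both genotype or both palmitate comparisons were named, at most 5 a list and direction. Nfkbib, Rela, Traf1, Il1r1 and Lcn2 were named after their values were seen. Alternatives covered background correction, scaling, filters, probe choice, the fold and the variance model.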

Additional observations from a re-analysis of the deposited data

Results flagged for a closer look

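One probe of Nfkb1 (mm9 chromosome 3, 135275144 to 135275203) differed between the genotypes in opposite directions in the 2 treatments, with −1.68 in untreated cells and 0.35 with palmitate. With single arrays this change of direction was not tested. The untreated Drp1LiKO array alone stood apart, at −4.17 against −2.50, −2.53 and −2.18 on the other arrays. The probe is dim, and the lowest level counted as above background on that array was −4.94. The other Nfkb1 probes gave −0.20 and 0.06 untreated and −0.14 and −0.09 with palmitate.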

How the results depend on the processing

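Replicate numbers pair no samples here, since each group has 1 array, and no array was left out for the same reason. The additive model compares the genotypes within each slide, and without its palmitate term it called 0 genes for genotype as well. Of 360 values of single members under the alternatives, 352 moved by less than the scanner error, 8 moved by more and 0 called values changed sign. Of 40 member differences, 31 kept their sign under all 9 alternatives. The 9 others were Nfkbiz, Birc3 and Vcam1 for genotype in untreated cells, Nfkb1, Nfkb2, Relb and Vcam1 for genotype with palmitate, and Nfkb2 and Icam1 for palmitate in control. All but Vcam1 in untreated cells (−0.40) lay between −0.14 and 0.13, and Vcam1 turned with the mean of its probes, of which the second was below background on both control arrays. Icam1, Nfkbia and Bcl3 stayed lower in Drp1LiKO in both treatments under all 9.

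The count of members called lower in untreated Drp1LiKO was 1, and 3 with median scaling (7.40% of all genes) or a 1.5-fold limit (11.4%). With palmitate it was 0, and 1 with median scaling (5.13% of genes) or the mean of all probes (4.28%) and 2 at 1.5-fold (8.33%). At 1.5-fold, 2 members were called higher with palmitate in control (5.73% of genes) and 4 in Drp1LiKO (7.93%), in place of 1 in each. Median scaling moved the median of all genes from −0.020 to −0.203 in untreated cells and from −0.029 to −0.174 with palmitate, and the share of called genes that were higher in untreated Drp1LiKO from 61.3% to 49.9%; members are to be read relative to these medians.

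The limma model called 0 genes for genotype, but 1536 after normexp background correction (adjusted p 0.0405 for Icam1 and Nfkbia), 2601 among probes above background on all arrays (0.0269 and 0.0283) and 5341 with an intensity trend. For palmitate it called 0, and 193 with the trend. Across all genes, the 2847 differences in untreated cells became 1043 with normexp, 1375 for probes above background on both arrays, 4637 with no filter and 5270 at 1.5-fold. In the same order the 2155 with palmitate became 683, 932, 3894 and 3964, the 1051 for palmitate in control 304, 186, 2844 and 1965, and the 1378 in Drp1LiKO 409, 431, 3480 and 2771. With values raised to the floor the latter counts were 652 and 904. The cause of these shifts was not tested. Dim probes limit the second Vcam1 probe and Il1b and Il6 in untreated control cells to bounds.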
